A study of Danio rerio with 5 samples.

Results

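The mitochondrial respiratory chain is built from subunits encoded in the nucleus and a few encoded in mitochondrial DNA. The 83 nuclear-encoded subunit genes described here were chosen from the 23628 gene IDs of the plate tables by symbol alone, as those whose symbol starts with NDUFA, NDUFB, NDUFC, NDUFS, NDUFV, SDHA to SDHD, UQCR, COX4 to COX8 or ATP5, without the assembly factors NDUFAF and SDHAF. By name, 37 belong to complex I (NADH dehydrogenase), 5 to complex II (succinate dehydrogenase), 7 to complex III (cytochrome bc1), 15 to complex IV (cytochrome c oxidase) and 19 to complex V (ATP synthase). The name table holds 96 names under this rule, of which 13 were not analysed here.

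Complexes I and II pass electrons from NADH and succinate to ubiquinone, complex III passes them on to cytochrome c, and complex IV reduces oxygen. Complexes I, III and IV pump protons across the inner mitochondrial membrane, and ATP synthase uses the return flow to make ATP. Quiescent blood stem cells are known to rely on glycolysis more than on respiration, and red cells of mammals lose their mitochondria as they mature, whereas fish red cells keep a nucleus and some mitochondria.

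The cells came from zebrafish embryos carrying the runx1+23:mCherry transgene, in which a Runx1 enhancer drives mCherry in hematopoietic stem and progenitor cells (HSPCs). Embryos had been injected with a standard control morpholino (std) or with an irf8 morpholino, which blocks the formation of macrophages, and live mCherry+ cells were sorted singly into 384-well plates at 3 days post fertilization. Each of the 5 plates held std cells in wells 1 to 188 and irf8 cells in wells 189 to 384, so the morpholino and the position on the plate changed together and cannot be told apart. Transcripts were counted by SORT-seq, which reads the 3' end of each transcript with a unique molecular identifier (UMI). A gene's UMIs therefore count molecules and are not scaled by transcript length. How many embryos stand behind a plate is not given in the sources used here, so any p-value measures the spread between plates.

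Of 1920 wells, 933 held at least 1000 gene UMIs and entered the analysis. These were 467 of 940 std wells with a median of 4479 UMIs and 466 of 980 irf8 wells with a median of 6414. The 10 sums per plate and morpholino held 90113 to 1786615 UMIs, and 1 cell gave 47.1% of the std sum of plate 3 and 37.2% of the irf8 sum of plate 5. The targeted transcript, irf8, gave 0 to 6 UMIs per sum, and the effect of the morpholino was not checked from it. All cells were labelled as HSPCs, but by marker genes 445 of the 933 were erythroid-like and 61 HSPC-like. The HSPC-like cluster held 7 of 10 HSPC markers, 3 thrombocyte and 2 erythroid markers, and itga2b (CD41, of both HSPCs and thrombocytes) was its first gene. At a finer clustering (Leiden resolution 2) an unnamed cluster of 17 cells held 6 HSPC and 6 thrombocyte markers. It was led by itga2b and FGL2 and had a median of 3933 UMIs. The 44 HSPC-like cells apart from it held 7 HSPC markers, with a median of 10183 UMIs. Since itga2b and FGL2 also lead the HSPC-like cluster described here, its shares and depth correlations may rest on both groups of cells. Plates 3 and 5 stood apart, with 0 and 1 erythroid-like cells respectively.

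Over all kept cells the subunit genes gave 130348 UMIs, 1.45% of the total. Complex V made up 46.0% of these UMIs, complex I 24.2%, complex IV 21.2%, complex III 6.28% and complex II 2.35%. ATP5F1B, the catalytic beta subunit of ATP synthase, led with 9139 UMIs and was seen in 79.1% of cells. ATP5F1A, the alpha subunit that alternates with it in the catalytic head, followed with 7878 UMIs, and atp5mc3b, a gene for the c subunit of the proton-driven ring, gave 6284. The most abundant complex IV genes were cox8a with 4626 UMIs, COX5B (ENSDARG00000015978) with 4464 and COX4I1 with 4195. At the other end, ndufa4l2b gave 1 UMI, cox5aa 3 and the second SDHD gene (ENSDARG00000055712) 8, while each of the other members gave at least 10. These 3 genes were picked for their low counts.

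The share of transcripts on the subunit genes differed by kind of cell more than by plate. In pooled UMIs erythroid-like cells had the lowest share, 0.665% over all plates, and HSPC-like cells had 2.33%. Between them lay mesenchyme-like cells at 0.779%, epidermis-like cells at 1.09%, cartilage-like cells at 1.20% and 4 unnamed clusters at 1.17% to 1.99%. The upper end of that range was cluster 3, led by lyz, CORO1A and CCR9, genes of white blood cells. Of the marker lists it held 3 HSPC, 2 lymphoid, 2 neutrophil and 1 erythroid markers. Muscle-like cells pooled to 2.48%. By the median cell the order differed, with mesenchyme-like cells lowest at 0.350% beside 0.625% in erythroid-like cells. The median muscle-like cell had 1.19% and the median HSPC-like cell 2.01%. The kinds were found by clustering these same cells without the subunit genes, so these levels are a description with no test.

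On the plates with at least 10 cells of a kind, erythroid-like cells had shares of 0.635%, 0.688% and 0.668% (plates 1, 2 and 4, with 95% Clopper-Pearson intervals from 0.614 to 0.707 in all). HSPC-like cells on the same plates had 2.41%, 2.17% and 2.37% (intervals from 2.10 to 2.48), and cluster 3 had 2.02%, 1.96% and 2.01%. The 3 kinds did not overlap between plates, and the HSPC-like minus erythroid-like difference was 1.65 percentage points on average. These intervals cover counting error only. The level in muscle rested on few cells. Plate 3 was the 1 plate with at least 10 muscle-like cells and had a share of 1.60%, with 1 cell giving 48.2% of the UMIs and 1.24% without that cell. The other plates together had 2.77% in 20 muscle-like cells.

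Globin transcripts took 49.2% of the UMIs of erythroid-like cells and 0.615% in HSPC-like cells. Of UMIs outside the globin genes, the subunit share over all plates was 1.31% in erythroid-like cells and 2.35% in HSPC-like cells. Averaged over the plates with enough cells of both kinds, the difference fell to 1.02 percentage points. Outside globin and over all plates, mesenchyme-like (0.785%), epidermis-like (1.15%) and cartilage-like cells (1.27%) lay below erythroid-like cells. Cartilage-like cells had 1.46%, 1.46% and 1.02% on plates 2, 4 and 5. Erythroid-like cells had 1.32% and 1.29% on plates 2 and 4, so the order turned there. In HSPC-like cells the share also moved with depth. Across the cells of a plate, both morpholinos together, the Spearman correlation of share and UMIs was 0.47, 0.46 and 0.77 in HSPC-like cells (19 to 21 cells). In erythroid-like cells it was 0.07, 0.20 and 0.20 (137 to 157 cells). Within a morpholino it was -0.03, -0.14 and -0.04 in std and 0.09, 0.20 and 0.23 in irf8 erythroid-like cells. In HSPC-like cells it was 0.42, 0.57 and 0.68 in std and 0.60, 0.48 and 0.65 in irf8 cells (6 to 15 cells). The median cell had a share of 2.01% in HSPC-like and 0.625% in erythroid-like cells. The HSPC-like cells of the finer clustering differed from erythroid-like cells by 1.84 percentage points. The part of depth and of cells with thrombocyte markers in the difference between the kinds was not tested.

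**Figure D1:**
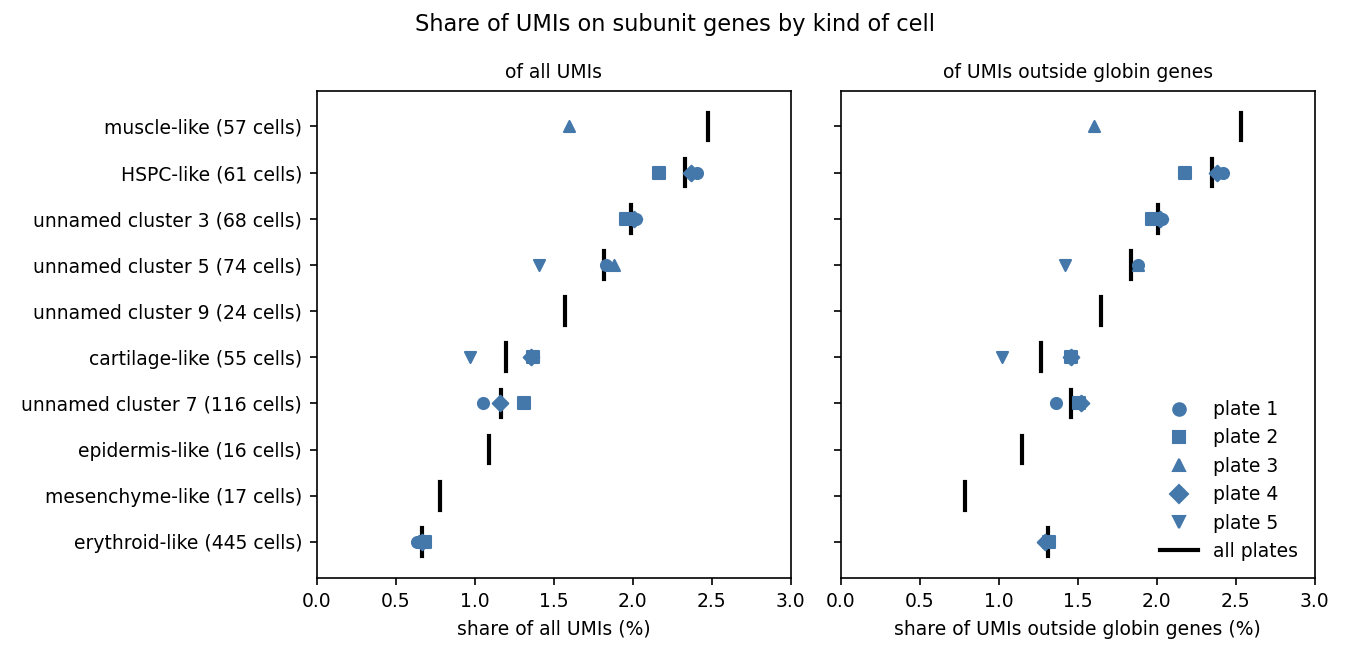
Share of UMIs (%) on the 83 subunit genes by kind of cell, of all UMIs (left) and of UMIs outside globin genes (right). Points are plates with at least 10 cells of the kind, and black bars are all plates together. Erythroid-like cells sit at 0.665% on the left and at 1.31% on the right, and HSPC-like cells at 2.33% and 2.35%.

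The make-up of the chain differed as well. Complex V gave 42.1% of the subunit UMIs in erythroid-like and 49.8% in HSPC-like cells, and complex I gave 28.7% and 21.4%. Complex IV gave 20.8% and 20.5%. On plates 1, 2 and 4 complex V ranged from 41.4% to 43.3% in erythroid-like and from 48.9% to 50.2% in HSPC-like cells, without overlap.

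Gene by gene, 72 of the 83 members had at least 30 UMIs over the 6 sums of these kinds and plates. In CPM (UMIs of a gene scaled to the same total in each sum), 69 of the 72 were higher in HSPC-like cells with no overlap between plates, where 52.2% of all 5071 genes compared were. In CPM of UMIs outside globin, 50 of 72 were higher (32.9% of 5061 genes) and 3 were lower (25.3%). The median log2 ratio of the members was 0.82, beside 0.18 over all genes compared. By complex it was 1.08 in complex V (16 of 19 higher, 1 lower), 1.09 in complex IV (8 of 9 higher), 0.86 in complex III (5 of 6), 0.88 in complex II (2 of 4) and 0.57 in complex I (19 of 34 higher, 2 lower).

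**Figure D2:**
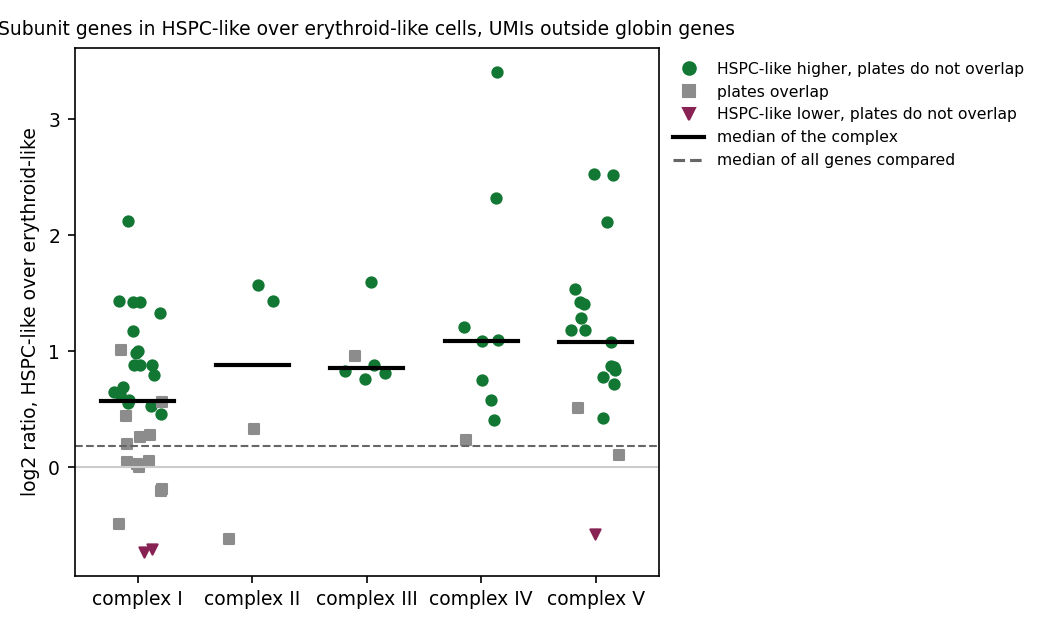
Log2 ratio of each subunit gene in HSPC-like over erythroid-like cells, in CPM of UMIs outside globin genes, by complex. Each point is a gene with at least 30 UMIs, colored by whether plates 1, 2 and 4 overlap. The complex V median lies at 1.08, the complex I median at 0.57 and the median of all genes compared at 0.18.

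The catalytic core of ATP synthase was among the genes that differed. Outside globin, ATP5F1A ranged from 1510 to 1580 CPM in HSPC-like and from 462 to 596 in erythroid-like cells, a log2 ratio of 1.54. ATP5F1B ranged from 1730 to 1830 and from 671 to 900, a log2 ratio of 1.18. The c subunit genes atp5mc1 (692 to 879 against 128 to 220) and ATP5MC3 (247 to 396 against 44.7 to 72.5) had log2 ratios of 2.11 and 2.53. COX7A2L, known in mammals for joining complexes III and IV into supercomplexes, had 239 to 272 against 50.0 to 52.2, a log2 ratio of 2.32. These genes were named after their values were seen.

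The 3 members that were lower in HSPC-like cells were NDUFA1, NDUFA6 and atp5if1b. NDUFA1, a small membrane subunit of complex I, had 108 to 151 CPM in HSPC-like and 193 to 233 in erythroid-like cells. NDUFA6, an accessory subunit of the same complex, had 143 to 190 and 244 to 318. The gene atp5if1b, which encodes an inhibitory factor of ATP synthase, had 153 to 221 and 226 to 307. NDUFB9, the complex I subunit with the highest level over all cells, overlapped between the kinds at 224 to 391 and 268 to 306.

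Zebrafish have a second gene for the inhibitory factor, atp5if1a, which is known for its role in heme synthesis from the pinotage mutant. The paralogs were used in opposite proportion in both blood kinds. Of the UMIs of both genes, atp5if1a took 14.9%, 25% and 14.0% in erythroid-like cells of plates 1, 2 and 4 and 62.3%, 64.3% and 68.8% in HSPC-like cells. It took 62.5%, 54.5% and 63.6% in cartilage-like cells (plates 2, 4 and 5), from 11 to 32 UMIs, and 44.6% in muscle-like cells. In CPM of all UMIs, atp5if1a was at 28.8 in erythroid-like and 330 in HSPC-like cells, and atp5if1b at 131 and 176. This family was singled out after its values were seen.

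Of the 12 families with several genes in the tables, COX4, COX5B and COX6A were each carried mostly by 1 gene. COX4I1 had 777 CPM in HSPC-like cells, beside 1.56 for cox4i1l and 1.56 for COX4I2. COX4I2, an isoform known in mammals for tissues that sense oxygen, was at 3.35 in erythroid-like and 39.5 in cartilage-like cells, from 7 and 24 UMIs, and varied in the latter from 12 to 160 between plates. The second genes of COX5B (ENSDARG00000068738) and COX6A1 (ENSDARG00000054588) stayed at or below 20.7 in the erythroid-like, HSPC-like, muscle-like and cartilage-like cells. For the COX6B subunit, which lies where complex IV monomers meet, cox6b2 was the main gene in erythroid-like (233) and HSPC-like cells (636). Its paralog cox6b1 was at 3.35 in erythroid-like cells (7 UMIs in 445 cells), 67.0 in HSPC-like cells and 123 in cluster 3. Outside globin its HSPC-like over erythroid-like log2 ratio of 3.41 was the largest of the 72 members. That ratio rests on 1, 3 and 3 UMIs in erythroid-like cells of plates 1, 2 and 4, beside 16, 14 and 11 in HSPC-like cells. The 72 members were kept by UMIs summed over both kinds, a limit that cox6b1 met through its HSPC-like UMIs. Its rank depends on that filter and on few erythroid-like UMIs, and was not tested. Near-identical copies can share reads, so levels of paralogs are uncertain to that extent.

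Among genes with UMIs in both muscle-like and erythroid-like cells, COX7A was the 1 family in which a gene's ratio of the former over the latter was at least 4 times that of another. COX6A1 (ENSDARG00000054588), with 0 muscle-like and 4 erythroid-like UMIs, was left out of this. COX7A2L was 7.0 times as high in muscle-like cells, COX7A2 4.99 times and cox7a1 1.71 times. The last rests on 10 and 12 UMIs. These ratios are in CPM of all UMIs, of which globin took 49.2% in erythroid-like and 2.09% in muscle-like cells. Muscle-like cells were pooled over plates, and 1 cell gave 16.2% of their UMIs. On plate 3 alone, COX7A2 was at 202 beside 440 pooled, COX7A2L at 186 beside 181, and cox7a1 at 3.95 beside 9.85. The c subunit genes of ATP synthase (3.99 between the extremes), COX4 (3.90) and the inhibitory factors (3.46) lay just under that limit.

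The comparison of irf8 with std cells asked whether the chain differs where macrophages were depleted. Over all kept cells the share of subunit transcripts was 1.33% in std and 1.38% in irf8 cells on plate 1, 1.35% and 1.37% on plate 2, 1.78% and 1.52% on plate 3, 1.43% and 1.48% on plate 4, and 1.78% and 1.72% on plate 5. The irf8 sums were higher on 3 plates and lower on 2, and the groups overlapped. The means were 1.53% ± 0.228 (SD, n = 5) in std and 1.49% ± 0.142 in irf8 cells. The difference of -0.0410 percentage points was smaller than its SD between plates of 0.130, and without plate 3 it was 0.0132. In transcripts estimated with the authors' correction for UMI collisions it was -0.0786. These sums mix kinds of cells, and a change in the kinds and a change within the cells cannot be told apart in them.

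By complex, the differences over all kept cells were small as well. Complex IV had 0.339% ± 0.0511 in std and 0.313% ± 0.0490 in irf8 cells and was lower on 4 of 5 plates. Complex III had 0.0990% ± 0.0177 and 0.0928% ± 0.00884, lower on 4 of 5. Complex V had 0.694% ± 0.0926 and 0.696% ± 0.0702, higher on 4 of 5. Complex I was at 0.367% and 0.356% and complex II at 0.0347% and 0.0353%, each higher on 3 of 5 plates. Each of the differences was smaller than its SD between plates. The mitochondrially encoded genes had 4.54% ± 0.582 and 5.54% ± 1.68 and were higher in irf8 cells on 4 of 5 plates.

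**Figure D3:**
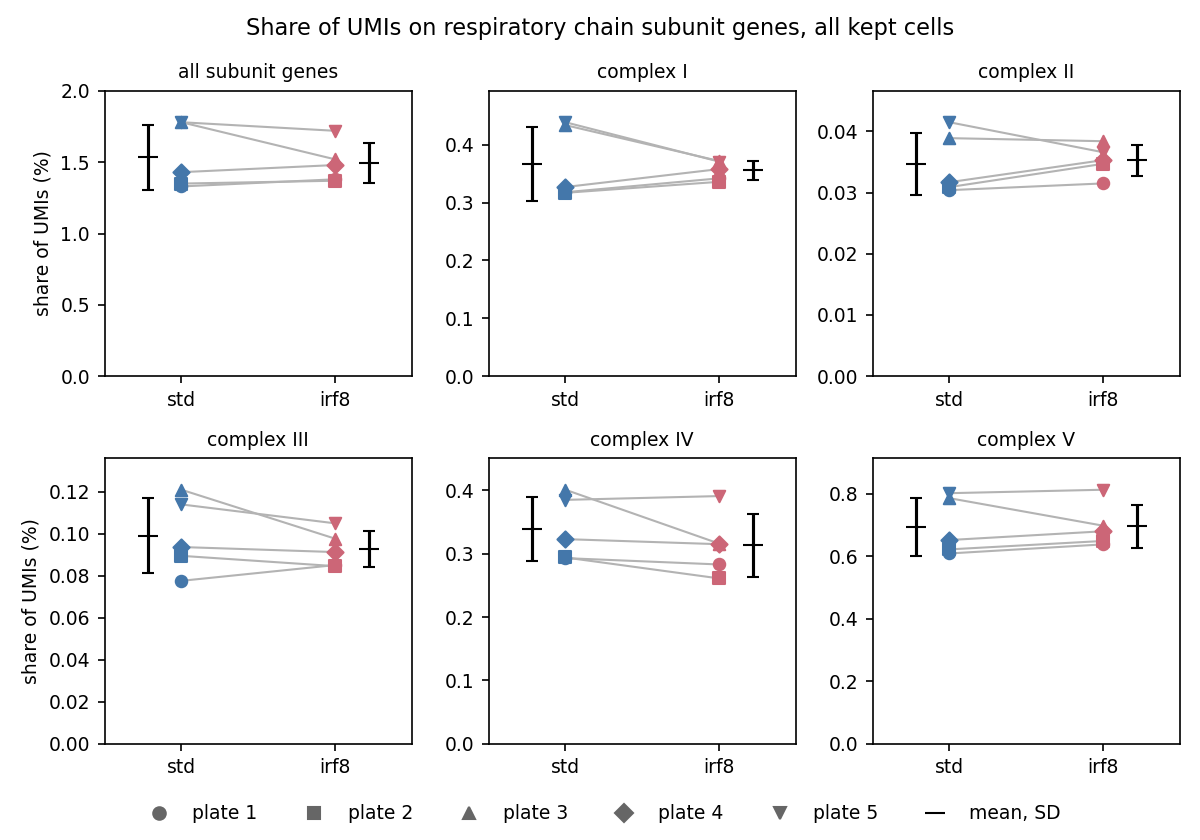
Share of UMIs (%) on all subunit genes and on those of each complex in the std and irf8 sums of all kept cells. Lines join the sums of a plate, and black bars give the mean and SD of 5 plates. All subunit genes lie between 1.33% and 1.78%, and the std and irf8 sums overlap in each panel.

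No subunit gene was called between the morpholinos over all kept cells (edgeR's quasi-likelihood test, plate as block, Benjamini-Hochberg adjusted p at 0.05). Of 7301 genes tested, 1 was called (0.0137%), and 75 of the 83 members passed the filter on low counts. At an unadjusted p under 0.05 there were 4 members, beside 9.25% of all genes. Of the 75 members 50 had a negative and 25 a positive log2 fold change of irf8 over std, with a median of -0.12 beside -0.03 over all genes. DESeq2, run without that filter, called 98 of 23467 genes (0.418%) and 1 of 83 members, cox6b1. In simulated data the same edgeR setting called 0 of 200 genes with a log2 change of 1. With a change of 2 it called 143 of 200. A lack of calls at this setting therefore does not exclude smaller differences. The simulated counts held no differences between plates and no mix of kinds, so they do not give the limit of these sums. With at least 10 counts in each real sum, edgeR called 91 of 1187 genes (7.67%) and 0 of 46 members.

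The gene cox6b1 had the smallest p. Its std levels on plates 1 to 5 were 52.0, 51.5, 48.7, 64.0 and 30.4 CPM, and its irf8 levels were 19.7, 14.3, 30.4, 18.5 and 33.3. It was lower in irf8 cells on 4 of 5 plates, at a log2 fold change of -1.35 (SE 0.32, adjusted p = 0.293 with edgeR and 0.0469 with DESeq2). By kind of cell and over all plates, it was at 89.4 in std and 36.7 in irf8 HSPC-like cells, at 137 and 73.2 in cluster 3 and at 64.2 and 11.0 in cluster 7, which is led by lens crystallins and also holds 11 erythroid markers. Of the 116 cells of cluster 7, 95 were irf8. Cluster 3 held 53 std and 15 irf8 cells, and the HSPC-like cluster 37 and 24. These levels came from 33 and 10 UMIs in HSPC-like cells, 74 and 11 in cluster 3, and 16 and 14 in cluster 7. The part of the mix of kinds in the difference over all kept cells was not tested. In cluster 5 cox6b1 was at 76.1 and 44.5 (31 and 27 UMIs), and in erythroid-like cells at 4.70 and 2.43 (4 and 3 UMIs). It was higher in irf8 cells among muscle-like (14.2 and 23.6, from 3 and 19 UMIs) and cartilage-like cells (9.94 and 19.6, from 3 and 6 UMIs).

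The 5 members next in order of p were all lower in irf8 cells on 5 of 5 plates. NDUFB1, a small accessory subunit of complex I, had 118, 121, 135, 110 and 156 CPM in std and 85.7, 84.6, 76.0, 104 and 88.8 in irf8 cells, with no overlap and a log2 fold change of -0.60 (SE 0.22). The other 4 were atp5mea (subunit e of ATP synthase, -0.51), atp5if1a (-0.48), UQCRQ (a small subunit of complex III, -0.42) and COX4I1 (-0.36). In erythroid-like cells atp5mea was instead higher in irf8 cells on 3 of 3 plates (22.9 and 32.3, 4.43 and 24.5, 9.59 and 32.2 CPM), from 1 to 15 UMIs per sum. Levels of atp5if1a over all kept cells were 128 to 166 in std and 97.4 to 127 in irf8 cells, again without overlap. By kind it was instead higher in irf8 cells among erythroid-like cells (17.6 and 36.4, from 15 and 45 UMIs), cluster 5 (155 and 179) and cluster 7 (48.1 and 98.6). It was lower among HSPC-like cells (341 and 315), cluster 3 (276 and 180), muscle-like (161 and 136) and cartilage-like cells (113 and 101). None of the 5 members passed the adjusted threshold. In the other direction ATP5F1B (797 to 1090 in std, 986 to 1170 in irf8) and ATP5F1C, the central stalk of ATP synthase (459 to 510 and 490 to 732), were higher in irf8 cells on 5 of 5 plates, with log2 fold changes of 0.12 and 0.13, not called. So was NDUFA9 of complex I (0.23, not called), with means of 77.6 and 95.8, named after its values were seen.

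The ranges of the remaining genes with the highest level of each complex overlapped between the morpholinos. In complex I, NDUFB9 had 178 to 234 CPM in std and 111 to 223 in irf8 cells, NDUFB8 151 to 234 and 133 to 201, and NDUFB4 136 to 202 and 145 to 322. In complex II, the iron-sulfur subunit SDHB had 78.6 to 132 and 99.9 to 141, the membrane anchor SDHC 83.2 to 125 and 102 to 133, and the flavoprotein SDHA 46.7 to 91.3 and 54.0 to 77.7. In complex III, UQCRH (the hinge protein) had 201 to 279 and 186 to 388, and the core protein UQCRC1 110 to 156 and 122 to 165. In complex IV, cox8a had 495 to 636 and 415 to 666, COX5B (ENSDARG00000015978) 442 to 681 and 417 to 732, and cox6a1 (ENSDARG00000022438) 435 to 609 and 410 to 566. In complex V, ATP5F1A had 715 to 1120 and 862 to 1130, and atp5mc3b 674 to 889 and 624 to 1080. Their log2 fold changes ran from -0.23 to 0.09. UQCRQ, the complex III gene of highest level, was lower in irf8 cells on each plate (263 to 478 and 236 to 278), as given above.

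Within erythroid-like cells the picture was different. Here the share of subunit transcripts was higher in irf8 than in std cells on each of the 3 plates with at least 10 such cells of both morpholinos, and most of the difference lay in complex V. Plate 1 had 0.599% in std (interval 0.572 to 0.627, 83 cells) and 0.673% in irf8 cells (0.643 to 0.705, 54 cells). Plate 2 had 0.589% (0.558 to 0.622, 63 cells) and 0.733% (0.710 to 0.758, 87 cells). Plate 4 had 0.580% (0.553 to 0.607, 81 cells) and 0.727% (0.703 to 0.752, 76 cells). The groups did not overlap, and the means were 0.589% ± 0.00968 and 0.711% ± 0.0330 (SD, n = 3), a difference of 0.122 percentage points with an SD of 0.0413. No p is given for a share over chosen genes.

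The complexes did not move alike in erythroid-like cells. Complex V went from a mean of 0.223% ± 0.00938 to 0.316% ± 0.0210, complex I from 0.174% ± 0.00391 to 0.201% ± 0.00509, and complex III from 0.0318% ± 0.00674 to 0.0414% ± 0.00286, each higher in irf8 cells on 3 of 3 plates. Complex II had 0.0193% ± 0.00118 and 0.0177% ± 0.00146 and was lower on 3 of 3. Complex IV had 0.140% ± 0.00203 and 0.136% ± 0.00980 and was lower on 2 of 3. Outside globin the irf8 cells had lower complex IV (0.296% and 0.258%) and complex II (0.0406% and 0.0338%) on 3 of 3 plates and higher complex V (0.470% and 0.601%) on 3 of 3, while all subunits together had 1.24% ± 0.0733 and 1.35% ± 0.0176. That difference of 0.114 percentage points had an SD of 0.0909 and was a smaller part of its level than the 0.122 points of all UMIs. On plate 1 the shares outside globin were 1.31% and 1.34%, on plate 2 1.25% and 1.35%, and on plate 4 1.16% and 1.37%. Complex I (0.367% and 0.383%) was then higher on 3 of 3 and complex III (0.0669% and 0.0788%) on 2 of 3.

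**Figure D4:**
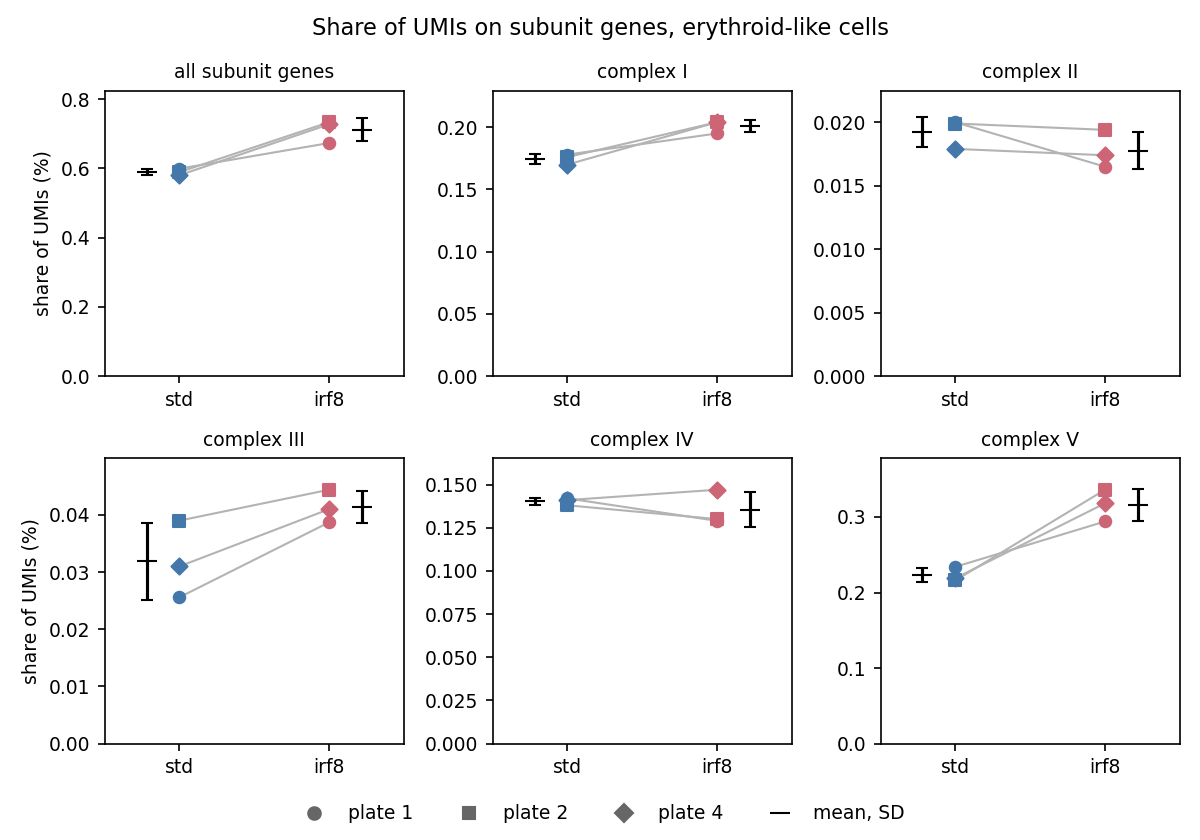
Share of UMIs (%) on all subunit genes and on those of each complex in std and irf8 erythroid-like cells. Lines join the sums of a plate, and black bars give the mean and SD of 3 plates. Complex V goes from a mean of 0.223% to 0.316%, and complex IV stays at 0.140% and 0.136%.

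Several other measures moved with the morpholino in these cells. Globin genes took 52.4% ± 2.09 of UMIs in std and 47.5% ± 2.01 in irf8 cells (lower on 3 of 3 plates), mitochondrially encoded genes 2.51% ± 0.476 and 3.26% ± 0.299, and the muscle marker list, with 13 of 14 markers found, 0.465% ± 0.473 and 0.632% ± 0.527. The median cell held 3493 to 3757 UMIs in std and 4847 to 5970 in irf8 sums. The clusters differed too. Clusters 0, 1 and 12 held 81, 43 and 61 std and 12, 10 and 17 irf8 cells, clusters 2 and 14 held 26 and 16 std and 85 and 57 irf8 cells, and cluster 11, whose leading genes are those of dividing cells (plk1, kif11, CENPF), held 1 std and 36 irf8 cells.

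The higher share was also seen within clusters and among cells of a narrower range of depth. Over all plates it was 0.599% in std and 0.677% in irf8 cells of cluster 0, 0.584% and 0.633% in cluster 1, 0.606% and 0.690% in cluster 2, 0.572% and 0.655% in cluster 12, and 0.605% and 0.708% in cluster 14. The intervals of std and irf8 cells overlapped in clusters 0 and 1 (in cluster 1, 0.545 to 0.624 and 0.569 to 0.702) and met at 0.603 in cluster 12. Complex V took 36.4% to 39.7% of the subunit UMIs in the std cells of these 5 clusters and 39.6% to 43.6% in their irf8 cells, higher in irf8 cells in 5 of 5. In the 36 irf8 cells of the dividing cluster the share was 0.811% and complex V took 50.1%. Among cells of 3000 to 6000 UMIs the shares were 0.612% and 0.70% on plate 1, 0.566% and 0.687% on plate 2, and 0.592% and 0.708% on plate 4. The median cell in this range was still deeper in irf8 cells, with 4126 and 4612 UMIs on plate 1, 4215 and 4364 on plate 2, and 4532 and 4629 on plate 4. Without the dividing cluster the mean difference was 0.0957 percentage points. All of these are shares of all UMIs, globin included, and the cluster values pool the plates. The part of globin, clusters, plates and depth in the difference was not tested.

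Of the 57 members tested in erythroid-like cells, edgeR called 9, 5 higher and 4 lower in irf8 cells. Of all 1679 genes tested it called 31.7%, 17.6% higher and 14.1% lower, and the share of members called, 9 of 57, was below that background, with no test of the difference. At an unadjusted p under 0.05 there were 10 members, beside 40.0% of all genes. The 5 that rose were all of ATP synthase, where 16 members were tested and the median log2 fold change was 0.32, beside 0.08 over the 57 members and 0.06 over all genes. Log2 fold changes of irf8 over std come from edgeR, which rescales the sums (TMM). CPM and shares use the plain total of each sum. These scales differ, so a fold change need not match the ratio of the CPM printed beside it. The calls depended on the setting. DESeq2, run without edgeR's filter on low counts, called 214 of 16322 genes (1.31%) and 0 of 79 members. Without that filter edgeR called 3.39% of 16322 genes and 4 of 79 members. Tool and filter changed together in the DESeq2 run, and the part of each was not tested. The calls moved with the plates used too. Without plate 1, 5 members were called (3 higher, 2 lower), and without plate 2 there were 2 (1 higher, 1 lower). Without plate 4 the 7 called were 1 higher and 6 lower, and 5 of them were among the 9. Without the dividing cluster 5 were called, 4 higher and 1 lower.

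The largest rise was in atp5mc1, a gene for the c ring subunit. It had 29.5, 48.7 and 57.5 CPM in std and 96.8, 145 and 118 in irf8 cells of plates 1, 2 and 4, a log2 fold change of 1.20 (SE 0.29, edgeR adjusted p = 0.00206), and was called in 9 of 10 alternatives. ATP5F1C had 249, 133 and 208 and then 341, 371 and 333, a change of 0.63 (adjusted p = 0.00947), and was called in 8 of 11. Neither gene overlapped between the morpholinos.

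The subunits of the catalytic head rose as well. ATP5F1B had 292, 288 and 265 CPM in std and 355, 550 and 494 in irf8 cells, a log2 fold change of 0.52 (edgeR adjusted p = 0.0167). ATP5F1A had 203, 186 and 182 and then 298, 367 and 277, a change of 0.51 (adjusted p = 0.0270). Of 11 alternatives, ATP5F1B was called in 7 and ATP5F1A in 6. ATP5MG, subunit g of the membrane part, had 98.3, 120 and 83.1 and then 165, 161 and 189, a change of 0.60 (adjusted p = 0.0476), and was called in 3 of 11 alternatives. Over all kept cells its log2 fold change was -0.33, not called.

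The 4 genes that fell belong to 4 complexes. NDUFB1 of complex I had 147, 137 and 112 CPM in std and 53.8, 61.1 and 75.2 in irf8 cells, a log2 fold change of -1.22 (edgeR adjusted p = 0.000711), and was called in 10 of 11 alternatives. It was also lower in irf8 cells among HSPC-like cells (152 and 91.7, from 56 and 25 UMIs) and in cluster 3 (108 and 53.2, from 58 and 8). The same held for cartilage-like cells (109 and 58.9, from 33 and 18) and cluster 5 (150 and 133, from 61 and 81). It was higher in cluster 7 (56.2 and 74.9, from 14 and 95) and muscle-like cells (137 and 147, from 29 and 118). In HSPC-like cells 51.4% of std and 58.3% of irf8 cells held a UMI of NDUFB1, at medians of 7830 and 10644 UMIs per cell. The inhibitory factor gene atp5if1b had 170, 186 and 150 and then 122, 85.6 and 122, a change of -0.81 (adjusted p = 0.00628). It was called in 7 of 11 alternatives. None of these erythroid-like values overlapped.

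The other genes that fell were less stable. SDHC of complex II had 128, 93.0 and 112 CPM in std and 57.4, 73.4 and 88.1 in irf8 cells, a log2 fold change of -0.77 (edgeR adjusted p = 0.0287, called in 5 of 11 alternatives). The gene cox8a of complex IV had 374, 243 and 371 and then 265, 228 and 320, which overlap, at a change of -0.46 (adjusted p = 0.0345, called in 4 of 11).

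**Figure D5:**
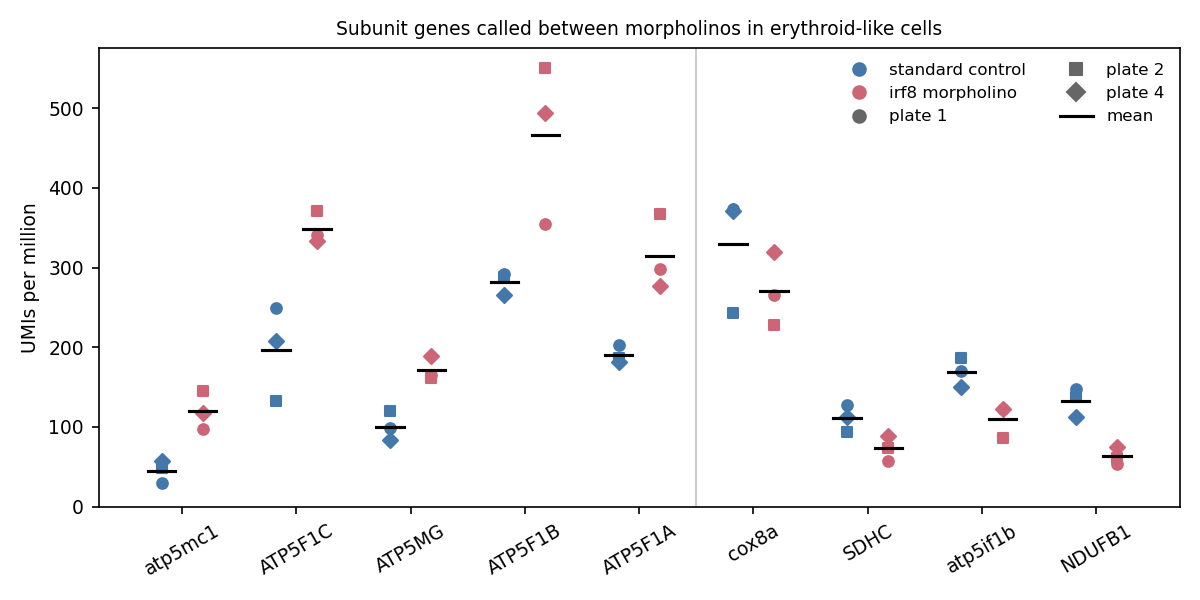
CPM of the 9 subunit genes called by edgeR between std and irf8 erythroid-like cells, with plates as points and bars at the mean. Left of the line are the 5 ATP synthase genes that rose (atp5mc1 from 29.5 to 57.5 in std and from 96.8 to 145 in irf8 cells), right of it the 4 genes that fell.

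The paralog atp5if1a was under the filter in these cells, with 3, 5 and 7 UMIs in std and 12, 23 and 10 in irf8 erythroid-like cells. It made up 5.45%, 10.6% and 13% of the UMIs of both inhibitory factor genes in std and 26.1%, 35.4% and 14.9% in irf8 cells. On plate 4 these shares were close, with intervals of 5.37 to 24.9 and 7.40 to 25.7. The genes of COX7A had 62.3, 62.0 and 67.1 CPM for COX7A2 in std and 122, 93.7 and 107 in irf8 cells, not called (log2 fold change 0.56, edgeR adjusted p = 0.134). COX7A2L had 36.0, 39.8 and 28.8 and then 10.8, 20.4 and 25.8 from few UMIs, and cox7a1 had 13.1, 8.85 and 12.8 and then 0, 0 and 4.30. Neither passed the filter.

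In HSPC-like cells too few cells were left for a test, with 6, 8 and 9 irf8 cells on plates 1, 2 and 4 beside 15, 12 and 10 std cells. Their subunit shares were 2.18% in std and 2.93% in irf8 cells on plate 1, 2.30% and 2.0% on plate 2, and 2.63% and 2.06% on plate 4. The summed share was higher in irf8 cells on plate 1 and lower on plates 2 and 4, but 1 cell gave 41.2% of the std UMIs of plate 4, and the median cell there had 1.23% in std and 2.11% in irf8 cells.

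Other genes around the chain were counted from lists. Over all kept cells none was called in any list. The median log2 fold change was 0.14 over 13 mitochondrially encoded subunits, -0.29 over 15 assembly factors, 0.02 over 2 genes of cytochrome c and c1, -0.08 over 10 carriers and pores, 0.22 over 16 TCA cycle enzymes, -0.02 over 17 glycolysis enzymes, 0.15 over 8 regulators of mitochondrial genes and 0.33 over 5 creatine kinases, beside -0.03 over all genes.

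In erythroid-like cells edgeR called 3 of 11 mitochondrially encoded subunits, all genes of complex IV and all higher in irf8 cells, MT-CO1 (log2 fold change 0.50, adjusted p = 0.00295), MT-CO3 (0.34) and MT-CO2 (0.30). The median of the 11 was -0.02, with 5 fitted higher and 6 lower. These and the counts of the other lists stand beside 17.6% of all genes called higher and 14.1% called lower. The nuclear-encoded complex IV genes gave 0 higher and 1 lower of 7 tested, with a median of -0.08. Of 3 carriers and pores, VDAC2, a pore of the outer membrane (-0.66), and SLC25A3, the phosphate carrier that supplies ATP synthase (-0.63), fell. Higher in irf8 cells were 2 of 4 glycolysis enzymes, LDHB (1.5) and GAPDH (0.98), 1 of 4 TCA cycle enzymes, SUCLG1 (0.94), and 1 of 3 regulators, YY1 (1.54). Of 2 genes of cytochrome c and c1 and 3 creatine kinases 0 were called.

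Between HSPC-like and erythroid-like cells, in CPM of UMIs outside globin, 3 of 12 mitochondrially encoded subunits were higher without overlap and the median log2 ratio was 0.20, beside 0.82 for the nuclear-encoded subunits. Over all genes compared 32.9% were higher and 25.3% lower, with a median of 0.18. TCA cycle enzymes were higher in 12 of 16 and lower in 1 (median 1.09), glycolysis enzymes higher in 8 of 15 and lower in 2 (1.41), assembly factors in 9 of 18 (1.02), genes of cytochrome c and c1 in 2 of 2 (1.73), carriers and pores higher in 5 of 10 and lower in 3 (0.30), regulators higher in 1 of 7 and lower in 1 (0.16) and creatine kinases in 0 of 3 (-1.68).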

How the data were processed

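The deposited values are estimated counts (expected counts) per gene and well, in which the authors counted UMIs and corrected them for collisions among 4096 possible UMIs, without scaling for depth. Submitters' notes name BWA, Seurat and GRCz11, and versions are not given in the sources used here. The correction was inverted, which gave whole UMIs for 100% of values (tolerance 1e-06), and spike-ins (6.67% of UMIs) were left out. Symbols came from a name table that covers 18186 of 23628 gene IDs and writes many in human style, so some paralogs could not be told apart by name.

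Wells with at least 1000 UMIs were kept. Cells were clustered with scanpy 1.11.5 without 223 genes (subunits, mitochondrial genes and pathway lists), using 2000 variable genes, 30 components, 15 neighbours and Leiden resolution 1. This was picked from 12 set-ups by the purity of erythroid and muscle markers. A name needed 3 markers, each in at least 25% of cells and 4-fold above the lower quartile of the cluster means. The kind also needed more such markers than any other kind. A cluster stayed unnamed if another kind had more markers among its 10 leading genes, or if 3 of these were lens genes. Clusters of low depth with no marker of the kind among these genes stayed unnamed too. Cells were sorted singly, and no doublet caller was run. UMIs of the cells of each plate and morpholino were added up, also by kind where at least 10 cells were present, and tested with edgeR 4.0.16 (filterByExpr, TMM, quasi-likelihood, plate as block) in R 4.3.3, with Benjamini-Hochberg adjustment over all genes tested. The pairing by plate comes from the labels. Deviations of the std and irf8 sums from their group means had correlations of 0.217, 0.325, 0.349, 0.322 and 0.122 on plates 1 to 5. On simulated data the test called 124 of 200 genes with a log2 change of 1 in erythroid-like sums of 1679 genes (3 unchanged genes called).

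Named are the 3 genes of highest level per complex, the 6 of smallest p, the called ones and families with a ratio of at least 4, with exceptions stated. Members and lists were chosen with earlier results of these data known. DESeq2 1.42.0, filters, denominators, depth limits, clusterings and leaving out each plate were tried as alternatives.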

Additional observations from a re-analysis of the deposited data

Results flagged for a closer look

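In 66 groups of 5 plates (the named genes and shares, per morpholino), 6 had a plate far from the other 4 by Dixon's test at 95%, where chance gives about 3.30. In 5 of the 6 it was the irf8 sum of plate 5, which holds 10 cells and 90113 UMIs with 37.2% from 1 cell. Its CPM were 111 for NDUFB9 (193 to 223 on the other plates), 322 for NDUFB4 (145 to 165), 388 for UQCRH (186 to 200), 1080 for atp5mc3b (624 to 650) and 732 for ATP5F1C (490 to 555). The sixth was cox7a1 in the irf8 sum of plate 4, at 8.40 beside 0 to 1.90, from 15 UMIs.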

How the results depend on the processing

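The difference in subunit share between irf8 and std over all kept cells moved by less than the SD between plates under each of 13 alternatives, and that in erythroid-like cells stayed positive under 10, at 0.0957 to 0.146 percentage points. Among these, the 0.114 outside globin refers to a std share of 1.24%, not 0.589%. All alternatives for erythroid-like cells except leaving out plates in the gene test, and those with the largest cell of each sum left out or with estimated transcripts in the gene test, were chosen after seeing the data. The HSPC-like minus erythroid-like difference of 1.65 became 1.02 outside globin, 1.29 as a mean of cells, 1.84 at Leiden resolution 2 and 1.14 with kinds set by marker share. The muscle-like minus erythroid-like difference of 0.937 became 0.288 outside globin, 1.1 without mitochondrial genes, 0.467 as a mean of cells, 1.52 and 1.19 at Leiden resolutions 0.5 and 2, 0.990 by marker share and 0.987 with at least 2000 UMIs. The 0.937 set muscle-like cells of plate 3 against erythroid-like cells of plates 1, 2 and 4. Kind and plate cannot be told apart in it, and 1 cell gave 48.2% of those muscle-like UMIs. Leiden 0.5 gave no HSPC-like cluster, and leaving out plate 3 left no plate for muscle.

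Over all kept cells, 1 of 7301 genes was called (0.0137%), beside 98 of 23467 with DESeq2 (0.418%, 1 subunit). With edgeR, 368 of 23467 were called without a filter (1.57%) and 91 of 1187 with at least 10 counts in each sum (7.67%). It called 0 without the 2% largest cells, 0 without the plate as replicate block and 0 to 1 without a plate. In erythroid-like cells 532 genes and 9 subunits were called, beside 214 and 0 with DESeq2, 554 and 4 without a filter, 317 and 6 with at least 10 counts, 388 and 5 without the dividing cluster, 452 and 6 without the replicate block, and 314 to 524 and 2 to 7 without a plate. The cause of these shifts was not tested. Where DESeq2 gave no adjusted p, a gene was not counted as called.

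Directions turned for 8 named genes over all kept cells, none of them called. COX7A2, fitted at 0.00, is not among the 8 and ran from -0.11 to 0.19 over the alternatives. Without a plate, log2 fold changes ran from -0.20 to 0.09 for NDUFB8, -0.09 to 0.12 for NDUFB4, -0.10 to 0.18 for SDHB, -0.07 to 0.06 for SDHC, -0.02 to 0.15 for UQCRC1, -0.07 to 0.02 for COX5B (ENSDARG00000015978), -0.01 to 0.14 for ATP5F1A and -0.02 to 0.09 for atp5mc1. Without the 2% largest cells they were -0.16 for SDHB, -0.09 for UQCRC1, -0.07 for ATP5F1A and -0.04 for atp5mc1. With at least 10 counts they were 0.05 for SDHC and 0.03 for COX5B, without globin 0.02 and 0.01, and with wells of fewer UMIs let in 0.02 for SDHC. Of 98 values for the called erythroid-like genes, 39 missed the threshold and 0 changed direction. In simulated data over all kept cells 0 of 200 genes with a log2 change of 1 were called, and the cause was not tested.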
